A study of Mus musculus with 6 samples.

Results

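The genes described here are 45 components of the Wnt signalling pathway, followed in RNA sequencing of embryonic mouse heart ventricles. They were chosen by name: 8 Wnt ligands, 11 receptors and co-receptors, 6 cytoplasmic components, 4 TCF/LEF transcription factors, 8 secreted inhibitors, 5 genes of the R-spondin axis and 3 feedback targets, out of 54532 genes in the expression table. The ventricles came from E12.5 embryos. There were 3 LSD1-CKO libraries and 3 control libraries, where CKO stands for conditional knockout and LSD1 is a histone demethylase encoded by Kdm1a. The labels name no Cre driver, allele or background strain, and leave unsaid whether libraries of 1 group are from different embryos or from pools. What the p-values weigh is thus the variation among the libraries at hand, some of which may be technical.

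Wnt proteins are secreted lipid-modified ligands that bind Frizzled receptors. In the canonical branch, Frizzled together with LRP5 or LRP6 recruits Dishevelled and stops the Axin, APC and GSK3 complex from marking beta-catenin for destruction, and beta-catenin then joins TCF/LEF factors on target genes such as Axin2. In the heart, canonical and noncanonical Wnt signals are known to act at successive steps, from specification of the cardiac mesoderm to growth of the ventricular wall and the outflow tract, and secreted inhibitors of the SFRP and Dickkopf families limit them.

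All 6 libraries were of like depth, with 17898946 to 20076028 reads recovered from the FPKM steps. FPKM are fragments scaled by exon length and by a size factor of each library, so levels can be set side by side between genes. Kdm1a itself had 10.7, 11.8 and 11.0 FPKM in LSD1-CKO ventricles, against 29.99, 29.7 and 22.8 FPKM in control ventricles (log2 change -1.22, SE 0.11, limma adjusted p = 0.00274). Each LSD1-CKO library lay far below each control library. Permuting the libraries exactly, two-sided, gave p = 0.1 for its group means, the smallest p possible with 3 against 3. Some libraries stood apart from others of their group. LSD1-CKO replicate 3 had a sex score (Xist minus the mean of 4 Y-linked genes, log2) of 3.71, against -2.85 to -1.80 in the other 5 libraries. LSD1-CKO replicate 1 had a summed level of 6 neural crest and Schwann markers of 11.9 FPKM, against 1.90 to 2.67 FPKM elsewhere. Mitochondrially encoded genes took 9.03% of the summed FPKM of control replicate 3, where the rest had 4.64% to 7.10%, and this library had the highest summed level of 8 cushion and fibroblast markers. Cardiomyocyte markers summed to 6114 to 6934 FPKM in the libraries, though Ttn averaged only 0.942 FPKM. Of the 6 liver and foregut markers, Nkx2-1 was listed at 0 in each library. Foxa2 had 2, 3 and 4 reads in LSD1-CKO libraries and 0 in each control library. Apoa2 and Ttr averaged 3.58 and 0.973 FPKM over all libraries, and Afp and Alb 0.261 and 0.111 FPKM.

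Of the 45 genes, 41 had a mean of at least 0.5 FPKM and entered the test across all genes. By limma on log2(FPKM + 1), with Benjamini-Hochberg adjustment over 14149 genes and a threshold of 0.05, 2 rose in LSD1-CKO ventricles, Dkk3 and Tcf7, and 1 fell, Fzd1. That is 7.32% of the members tested, where 2.37% of all genes tested were called. After rescaling to TPM, or scaling without haemoglobin and mitochondrial genes, the members called were 3 higher, Rspo3 included, and 0 lower. Under these scalings the median log2 change of all genes tested moved up, to 0.06 and 0.04. With FPKM as deposited, 1.91% of all genes were called higher and 0.466% lower. A further 9 members had an unadjusted p under 0.05 without passing adjustment. That makes 12 in all, 9 higher and 3 lower, or 29.3% of the members, against 16.1% of all genes (8.67% higher and 7.4% lower). All 3 LSD1-CKO values lay outside the range of the 3 control values, on 1 side, for 12 members, 8 higher and 4 lower. This is again 29.3%, against 21.4% of all genes (11% higher and 10.4% lower). The median log2 change of the 41 members was 0.04, and of all genes tested -0.01. Whether the members differ from other genes was not tested.

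**Figure D1:**
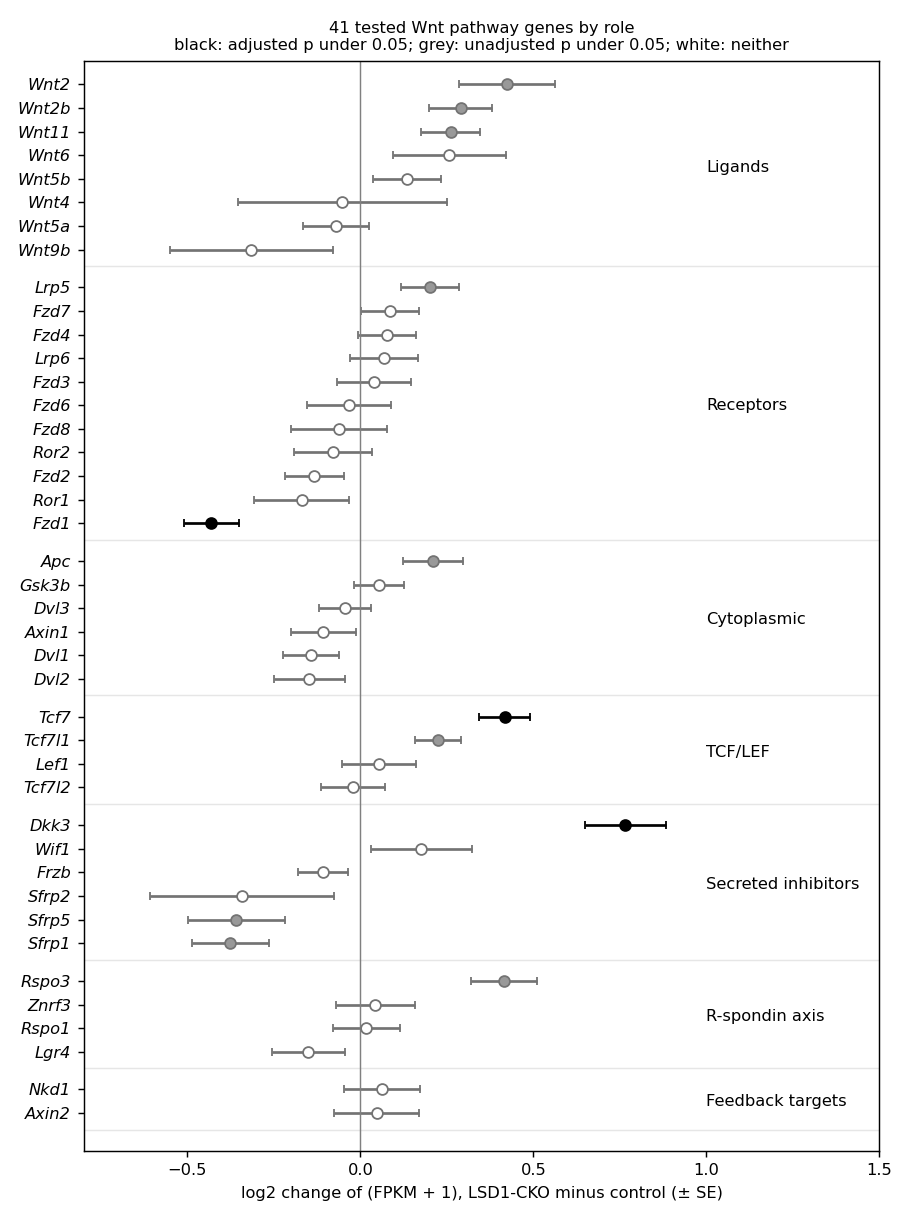
Log2 change of (FPKM + 1), LSD1-CKO minus control, with its standard error from limma, for the 41 tested Wnt pathway genes grouped by role (3 libraries per group). Dkk3 at 0.77 and Tcf7 at 0.42 lie above 0 and Fzd1 at -0.43 below it as the 3 genes that passed adjustment, drawn in black.

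Sequence windows at annotated starts of genes the results turn on are shown, so that they can be read beside the levels. Whether a window is the promoter in use was not tested. RefSeq (GRCm38.p6) windows of 300 bases, 250 before and 50 after an annotated start, were at hand for 31 of the 45 genes. Each was searched on both strands for CTTTGAT, which reads ATCAAAG from the opposite side. It is a form of the site bound by TCF/LEF factors and is called the core here. Other forms of the site were not searched. Tcf7, with 2 annotated starts, and Fzd1 are given because both changed, and 1 of the 2 windows of Wnt11 because it held the core. Capitals mark the core, and windows without it are wholly in lower case. The Tcf7 windows lie at chr11:52282965-52283264 and chr11:52282546-52282845 on the minus strand, that of Fzd1 at chr5:4758167-4758466 on the minus strand, and that of Wnt11 at chr7:98834862-98835161 on the plus strand.
Tcf7, window 1: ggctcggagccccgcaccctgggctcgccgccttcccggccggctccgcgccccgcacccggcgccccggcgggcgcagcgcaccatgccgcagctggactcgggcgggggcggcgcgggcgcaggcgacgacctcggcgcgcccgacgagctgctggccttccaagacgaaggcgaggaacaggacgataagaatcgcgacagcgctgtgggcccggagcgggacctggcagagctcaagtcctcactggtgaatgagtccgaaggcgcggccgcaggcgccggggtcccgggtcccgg
Tcf7, window 2: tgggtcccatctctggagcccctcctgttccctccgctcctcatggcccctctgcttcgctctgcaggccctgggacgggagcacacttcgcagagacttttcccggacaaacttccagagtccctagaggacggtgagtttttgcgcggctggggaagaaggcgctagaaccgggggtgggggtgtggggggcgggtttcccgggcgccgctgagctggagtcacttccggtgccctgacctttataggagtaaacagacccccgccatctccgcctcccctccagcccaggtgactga
Fzd1: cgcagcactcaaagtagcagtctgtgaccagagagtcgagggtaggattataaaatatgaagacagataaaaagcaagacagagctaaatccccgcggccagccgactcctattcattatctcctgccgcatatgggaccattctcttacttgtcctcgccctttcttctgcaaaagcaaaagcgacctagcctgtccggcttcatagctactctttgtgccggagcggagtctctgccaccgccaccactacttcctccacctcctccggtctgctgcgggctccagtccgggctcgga
Wnt11: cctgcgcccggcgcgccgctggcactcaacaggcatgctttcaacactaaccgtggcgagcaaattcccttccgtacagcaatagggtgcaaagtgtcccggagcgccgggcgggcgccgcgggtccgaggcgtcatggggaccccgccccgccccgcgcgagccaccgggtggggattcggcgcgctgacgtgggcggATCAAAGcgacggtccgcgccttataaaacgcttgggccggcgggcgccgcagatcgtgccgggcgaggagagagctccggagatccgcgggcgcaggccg
In the Wnt11 window shown the core begins at base 200, and the second Wnt11 window, at chr7:98838595-98838894 on the plus strand with a GC content of 59.3%, did not hold it. The core was found in windows of 2 of the 31 members, Wnt11 and Wnt5b, which is 6.45%, against 4.29% of 27025 genes with a window. A match is a run of letters and not a shown binding site. The windows of Tcf7 and Fzd1 did not hold these letters, and Dkk3 is given by name only. In window 1 of Tcf7 a reading frame that opens with atg begins ahead of the annotated start. Full-length Tcf7 may thus start outside this window, which need not hold its promoter. The GC content was 76.3% and 64.3% in the Tcf7 windows, 54.0% in that of Fzd1 and 71.3% in the Wnt11 window shown.

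Among the ligands, 8 of 8 were tested and 0 passed adjustment in either direction, with limma or with voom on recovered reads, while 3 had an unadjusted p under 0.05, all higher in LSD1-CKO. Wnt11, a ligand known for noncanonical signalling in the developing heart, had the highest mean over all 6 libraries, 6.85 FPKM, close to the 6.61 FPKM of Wnt5b, which was the higher of the pair in control ventricles. Wnt11 had 7.38, 7.15 and 8.13 FPKM in LSD1-CKO ventricles, against 6.47, 5.49 and 6.49 FPKM in control ventricles, a ratio of means of 1.23 (log2 change 0.26, SE 0.08, limma adjusted p = 0.186). Each LSD1-CKO library lay above each control library. Wnt2b, closely related in sequence to Wnt2, had 5.28, 5.42 and 5.64 FPKM in LSD1-CKO and 4.28, 3.73 and 4.87 FPKM in control ventricles (log2 change 0.29, SE 0.09, limma adjusted p = 0.175). The groups again did not overlap. Wnt2, a canonical ligand of early cardiac progenitors, had 3.24, 4.87 and 3.08 FPKM in LSD1-CKO and 2.55, 2.32 and 2.57 FPKM in control ventricles (log2 change 0.42, SE 0.14, limma adjusted p = 0.194). Its groups were separate too, with LSD1-CKO replicate 2 far above the other libraries. Without that library the log2 change of Wnt2 was 0.26.

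The other 5 ligands overlapped between groups. Wnt5b averaged 6.96 ± 0.578 FPKM in LSD1-CKO and 6.27 ± 0.810 FPKM in control ventricles, and Wnt5a, the classical noncanonical ligand, 5.50 ± 0.516 FPKM in LSD1-CKO and 5.84 ± 0.648 FPKM in control ventricles (SD, n = 3 each). Wnt6 was low, at 0.752 ± 0.293 FPKM in LSD1-CKO and 0.465 ± 0.219 FPKM in control ventricles (SD, n = 3 each). For Wnt4 and Wnt9b, control replicate 3 was the highest of all libraries. Wnt4 had 1.52, 2.38 and 2.04 FPKM in LSD1-CKO and 1.81, 1.03 and 4.06 FPKM in control ventricles. Wnt9b, a ligand of the endocardial cushions, had 0.416, 0.639 and 0.620 FPKM in LSD1-CKO and 1.02, 0.336 and 1.69 FPKM in control ventricles. That control library also held the most cushion and fibroblast marker RNA, 460.3 FPKM summed over 8 markers, against 269.4 to 351.6 FPKM in LSD1-CKO and 290.6 and 293.5 FPKM in the other control libraries. The part of those cells in the Wnt4 and Wnt9b values was not tested. In bulk tissue, more cells of a type and more RNA per cell cannot be told apart. The summed level of the 8 ligands was 30.6, 33.9 and 33.0 FPKM in LSD1-CKO and 27.5, 25.3 and 33.6 FPKM in control ventricles, so the groups overlapped through control replicate 3.

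**Figure D2:**
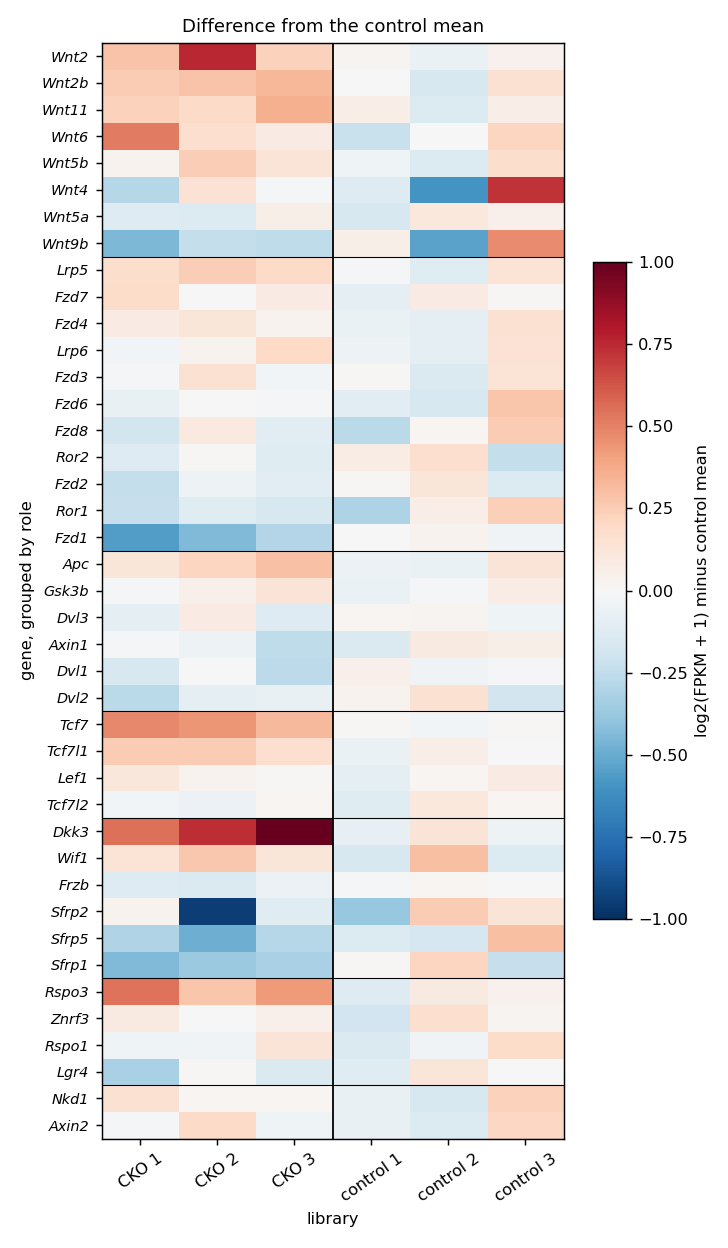
Each row is 1 of the 41 tested Wnt pathway genes and each column 1 library (LSD1-CKO left, control right), and the colour is log2(FPKM + 1) minus the mean of the control libraries. Dkk3, Tcf7, Rspo3, Wnt2, Wnt2b and Wnt11 are red in each LSD1-CKO column and Fzd1, Sfrp1 and Sfrp5 blue, while Wnt4 and Wnt9b are reddest in control replicate 3.

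Among the receptors and co-receptors, 1 of 11 changed: Fzd1, a Frizzled that can signal through beta-catenin, fell. It had 7.48, 8.19 and 9.18 FPKM in LSD1-CKO ventricles, against 11.5, 11.8 and 11.2 FPKM in control ventricles, and the highest LSD1-CKO library lay below the lowest control library. The ratio of means was 0.722 (log2 change -0.43, SE 0.08, limma adjusted p = 0.0404). Its locus, ENSMUSG00000044674, spans 4753839 to 4758035 of chromosome 5 in mm10 (minus strand), and no other gene overlaps its exons. The direction was kept in each of 17 other fits, but the call held in 7 of them. Leaving out a single library, it held in 1 of 6 fits, without LSD1-CKO replicate 3 (adjusted p = 0.0475), and the adjusted p was 0.059 to 0.142 in the other 5.

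Fzd2 was the most abundant receptor. It had 21.8, 24.9 and 23.8 FPKM in LSD1-CKO ventricles and 26.1, 28.2 and 23.4 FPKM in control ventricles, with overlapping groups (log2 change -0.13, SE 0.09, limma adjusted p = 0.489). Fzd2 made up 45.4% to 47.0% of the summed level of the 7 Frizzled genes in LSD1-CKO and 41.6% to 48.6% in control libraries. The Fzd1 share was 15.5% to 17.8% in LSD1-CKO and 19.8% to 21.1% in control libraries, a separation that follows from the Fzd1 values themselves. The 7 Frizzled genes among the members summed to 48.0, 53.0 and 51.5 FPKM in LSD1-CKO and 54.3, 58.0 and 56.3 FPKM in control libraries. Fzd5, Fzd9 and Fzd10, tested outside the members, are not in these sums or shares. In LSD1-CKO they averaged 0.635, 3.83 and 0.851 FPKM, and in control ventricles 0.757, 2.17 and 1.58 FPKM. The gap between the groups in these sums need not hold for the whole family. The other 5 Frizzled genes among the members had fitted log2 changes between -0.06 and 0.08 with overlapping groups.

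Lrp5, a co-receptor of canonical signalling, had 4.99, 5.30 and 5.06 FPKM in LSD1-CKO ventricles and 4.27, 3.88 and 4.86 FPKM in control ventricles. The groups did not overlap, but the change missed the threshold (log2 change 0.20, SE 0.08, limma adjusted p = 0.299). Its close relative Lrp6 averaged 3.28 ± 0.347 FPKM in LSD1-CKO and 3.08 ± 0.375 FPKM in control ventricles (SD, n = 3 each). The Wnt5a receptors Ror2 and Ror1 averaged 6.30 ± 0.421 and 1.98 ± 0.111 FPKM in LSD1-CKO, against 6.76 ± 1.11 and 2.39 ± 0.631 FPKM in control ventricles (SD, n = 3 each), with overlap in both.

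None of the 6 cytoplasmic components passed adjustment with limma or with voom, and 1 had an unadjusted p under 0.05. Axin1, the scaffold of the destruction complex and the most abundant of them, had 10.5, 10.3 and 8.81 FPKM in LSD1-CKO ventricles and 9.55, 11.4 and 11.2 FPKM in control ventricles (log2 change -0.11, SE 0.09, limma adjusted p = 0.622). Apc, the tumour suppressor of the same complex, had 3.39, 3.68 and 3.95 FPKM in LSD1-CKO and 2.87, 2.86 and 3.40 FPKM in control ventricles (log2 change 0.21, SE 0.09, limma adjusted p = 0.296). LSD1-CKO replicate 1 and control replicate 3 were nearly equal for Apc, so its groups touched, while after rescaling to TPM each LSD1-CKO library lay above each control library. The kinase gene Gsk3b averaged 6.86 ± 0.392 FPKM in LSD1-CKO and 6.58 ± 0.384 FPKM in control ventricles. The Dishevelled genes Dvl1, Dvl2 and Dvl3, which relay the signal from Frizzled, had fitted log2 changes of -0.14, -0.15 and -0.05 with overlapping groups. Of the Dvl2 exon bases 19.7% lie under Acadvl or a microRNA gene, and the library kit keeps no strand.

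Of the 4 TCF/LEF factors, Tcf7 rose and 0 fell. Tcf7, which encodes TCF-1, had 4.09, 3.97 and 3.58 FPKM in LSD1-CKO ventricles, against 2.68, 2.59 and 2.68 FPKM in control ventricles. The control libraries were almost level and each LSD1-CKO library lay above them, at a ratio of means of 1.46 (log2 change 0.42, SE 0.07, limma adjusted p = 0.0347). Between 121 and 202 reads lay behind each of these values. Its locus, ENSMUSG00000000782, spans 52252371 to 52283014 of chromosome 11 (minus strand), and no other gene overlaps its exons. Both full-length TCF-1 and shorter forms without the beta-catenin binding domain are known, and a gene total does not separate them. The direction was kept in each of 16 other fits and the call in 6. Leaving out any 1 library ended it, with adjusted p from 0.0565 (without control replicate 3) to 0.139 (without LSD1-CKO replicate 2).

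Tcf7l1, which encodes TCF-3, best known as a repressor in embryonic cells, was the most abundant of the 4. It had 8.15, 8.14 and 7.63 FPKM in LSD1-CKO ventricles and 6.34, 7.03 and 6.69 FPKM in control ventricles, without overlap (log2 change 0.22, SE 0.07, limma adjusted p = 0.159). Tcf7l2 averaged 1.49 ± 0.0721 FPKM in LSD1-CKO and 1.54 ± 0.193 FPKM in control ventricles, and Lef1 0.531 ± 0.0597 FPKM in LSD1-CKO and 0.476 ± 0.0930 FPKM in control ventricles (SD, n = 3 each). Lef1 has 13.7% of its exon bases under Gm43352. Summed over the 4 factors the level was 14.3, 14.0 and 13.3 FPKM in LSD1-CKO and 10.7, 11.8 and 11.5 FPKM in control ventricles. Tcf7 made up 27.0% to 28.6% of that sum in LSD1-CKO and 21.9% to 25.0% in control libraries, and Tcf7l1 56.9% to 58.0% in LSD1-CKO and 58.2% to 59.4% in control libraries. The order of the levels, Tcf7l1 above Tcf7 above Tcf7l2 above Lef1, was the same in both groups.

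**Figure D3:**
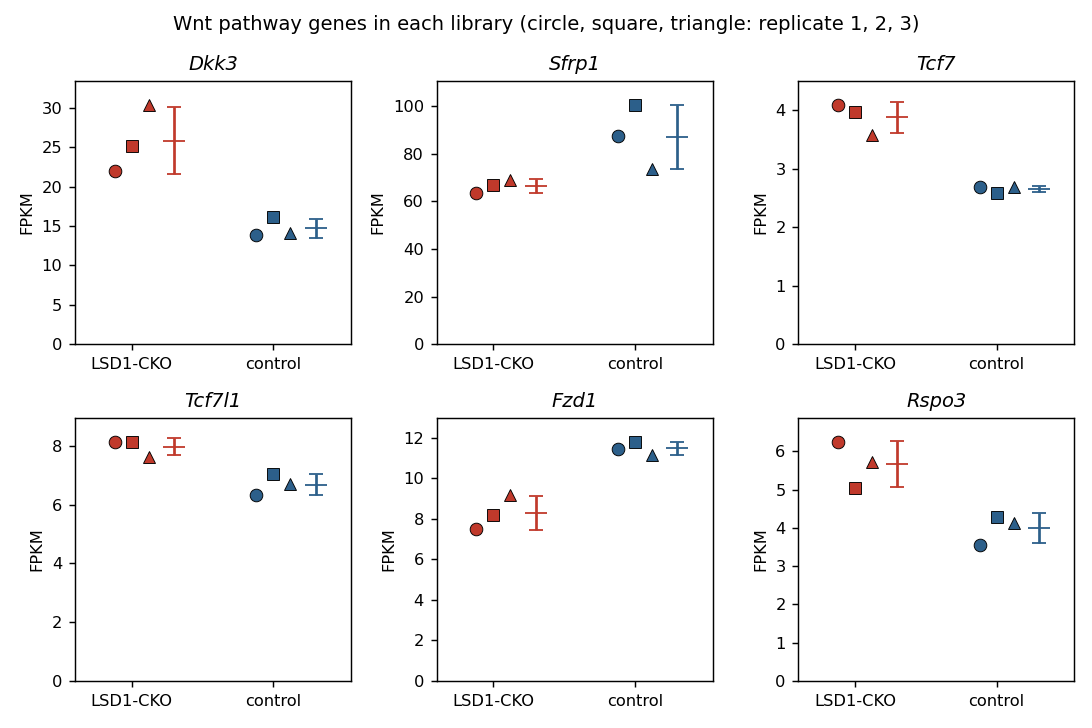
FPKM of 6 Wnt pathway genes in each library, with LSD1-CKO in red and control in blue, and the mean ± SD (n = 3) to the right of each group. Dkk3 and Tcf7 are higher and Fzd1 lower in every LSD1-CKO library than in any control library, and Sfrp1, Tcf7l1 and Rspo3, which missed the threshold, do not overlap either.

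Of the 8 secreted inhibitors, 6 were tested, and 1 rose and 0 fell. Dkk3 encodes a divergent member of the Dickkopf family, whose part in Wnt signalling is less settled than that of the LRP6 antagonist DKK1. It had 22.0, 25.2 and 30.4 FPKM in LSD1-CKO ventricles, against 13.8, 16.1 and 14.1 FPKM in control ventricles, so that the lowest LSD1-CKO library lay well above the highest control library. The means were 25.9 ± 4.23 FPKM in LSD1-CKO and 14.7 ± 1.26 FPKM in control ventricles (SD, n = 3 each). LSD1-CKO thus stood at 1.76 times control (log2 change 0.77, SE 0.12, limma adjusted p = 0.0195). On the log2(FPKM + 1) scale this was the largest change among the 41 members tested, whereas by ratio of means the low gene Wnt9b, at 0.551 and with overlapping groups, lay farther from 1. Its locus, ENSMUSG00000030772, spans 112116017 to 112159057 of chromosome 7 (minus strand), and its exons are likewise free of overlap.

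The rise of Dkk3 kept its direction in each of 17 other fits and its call in 13. Without LSD1-CKO replicate 2 the adjusted p was 0.0765 and without control replicate 1 it was 0.0767, while the other 4 fits that left out a library kept the call. LSD1-CKO replicate 3, whose sex score differs, had the highest Dkk3 level. Without it the log2 change was 0.65 (adjusted p = 0.0472), and with the sex score as a covariate 0.63 (adjusted p = 0.0761). Epicardial markers summed to 322.7, 291.1 and 294.3 FPKM in LSD1-CKO and 339.6, 267.9 and 305.1 FPKM in control libraries, and smooth muscle markers to 1055 to 1240 FPKM in LSD1-CKO and 845.2 to 1413 FPKM in control libraries. Both marker sums overlapped between the groups, and none of their members was called (0 of 8 and 0 of 3 tested by limma, with 0 and 0 by voom). Of the smooth muscle markers, whose sum is mostly Acta2, 3 of 3 tested were fitted above 0, with a median log2 change of 0.19. The groups were without overlap for 1 of them, Tagln, and for 21.4% of all genes tested. Tagln averaged 1.70 FPKM, and 67.9% of its exon bases lie under Pcsk7 or Gm48529. The part of epicardial and smooth muscle cells in the Dkk3 values was not tested.

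Sfrp1, a secreted Frizzled-related protein that binds Wnt ligands, was the most abundant member of all. It had 63.4, 66.7 and 69.0 FPKM in LSD1-CKO ventricles and 87.2, 100.4 and 73.6 FPKM in control ventricles, with separate groups. The change missed the threshold with all libraries (log2 change -0.38, SE 0.11, limma adjusted p = 0.152). It passed without control replicate 3, the lowest control library (log2 change -0.49, adjusted p = 0.0349). Sfrp5, of the same family, had 1.78, 1.44 and 1.80 FPKM in LSD1-CKO and 2.11, 2.04 and 3.22 FPKM in control ventricles (log2 change -0.36, SE 0.14, limma adjusted p = 0.268). Without control replicate 3, its highest library, the log2 change of Sfrp5 was -0.21. Frzb, also named Sfrp3, had 2.43, 2.40 and 2.61 FPKM in LSD1-CKO and 2.71, 2.80 and 2.75 FPKM in control ventricles (log2 change -0.11, SE 0.07, limma adjusted p = 0.505). These 3 family members thus lay lower in every LSD1-CKO library without passing the test, while Sfrp2 overlapped. Rescaled to TPM, Sfrp5 stayed apart, but Sfrp1 and Frzb overlapped between the groups. Sfrp2 had 23.8, 11.6 and 21.3 FPKM in LSD1-CKO and 17.6, 27.8 and 25.5 FPKM in control ventricles, and 16.1% of its exon bases lie under Gm26771.

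The remaining inhibitors were scarce. Wif1, a Wnt-binding protein, averaged 0.831 ± 0.108 FPKM in LSD1-CKO and 0.637 ± 0.311 FPKM in control ventricles (SD, n = 3 each). Dkk2 and Dkk1 fell under the filter. Dkk2 had 20, 6 and 20 reads in LSD1-CKO and 15, 20 and 46 reads in control libraries, and Dkk1 4, 1 and 0 reads in LSD1-CKO and 3, 4 and 4 reads in control libraries. A difference in Dkk1 was not detectable at this depth.

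Sfrp2, not Dkk3, was the second most abundant inhibitor in each control library, and Dkk3 stood above Sfrp2 in 2 of 3 LSD1-CKO libraries. The ratio of Sfrp1 to Dkk3 was 2.88, 2.64 and 2.27 in LSD1-CKO libraries and 6.31, 6.22 and 5.20 in control libraries. Dkk3 made up 19.2%, 23.3% and 24.1% of the summed inhibitor level in LSD1-CKO libraries, against 11.1%, 10.7% and 11.7% in control libraries. The sum over the 8 genes was 114.6, 108.4 and 126.1 FPKM in LSD1-CKO and 124.2, 150.6 and 120.4 FPKM in control libraries, with overlap. These ratios rest on the same values as the Dkk3 call and add no separate test.

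**Figure D4:**
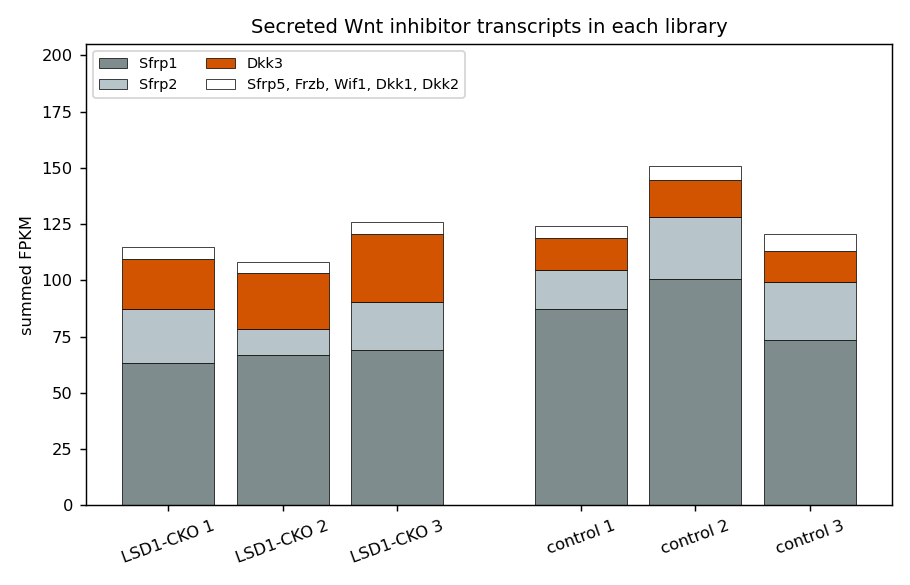
Stacked FPKM of the secreted Wnt inhibitor genes in each library, LSD1-CKO left and control right. The Dkk3 part is 22.0 to 30.4 FPKM in LSD1-CKO and 13.8 to 16.1 FPKM in control libraries, and the Sfrp1 part 63.4 to 69.0 FPKM in LSD1-CKO and 73.6 to 100.4 FPKM in control libraries.

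R-spondins are secreted proteins that bind LGR receptors and keep the ubiquitin ligases ZNRF3 and RNF43 from removing Frizzled. None of the 4 genes of this axis that were tested passed adjustment with limma, and 1, Rspo3, had an unadjusted p under 0.05. Rspo3 had 6.25, 5.04 and 5.71 FPKM in LSD1-CKO ventricles and 3.56, 4.29 and 4.12 FPKM in control ventricles, without overlap (log2 change 0.42, SE 0.10, limma adjusted p = 0.0797). It passed under 3 of 16 alternatives, namely after rescaling to TPM (adjusted p = 0.0397), after scaling without haemoglobin and mitochondrial genes (0.0479) and by voom (0.034). Exons of Gm48159, on the other strand, cover 13.1% of its exon bases. Endothelial and endocardial markers summed to 168.4, 198.3 and 206.8 FPKM in LSD1-CKO and 142.5, 142.2 and 197.2 FPKM in control libraries, and none was at 0. In the reported limma fit 0 of 8 were called, and by voom 1, Npr3. By limma, Npr3 was called higher with array weights, and Npr3 and Emcn without control replicate 3. All 8 were fitted above 0, with a median log2 change of 0.24, and 2 did not overlap, where 21.4% of all genes tested did not. Immune markers summed to 140.6, 127.7 and 150.02 FPKM in LSD1-CKO and 104.6, 106.3 and 131.9 FPKM in control libraries. Of these, 5 of 5 tested were fitted above 0, with a median of 0.28, and 2 did not overlap (21.4% over all genes tested). In the reported limma fit and by voom, 0 were called. By limma, C1qa was called higher after rescaling to TPM and after scaling without haemoglobin and mitochondrial genes. Lyz2 was called higher without control replicate 3. The part of either cell type in the Rspo3 and ligand values was not tested.

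Rspo1 was the most abundant gene of the axis. It had 15.2, 15.3 and 17.2 FPKM in LSD1-CKO ventricles and 14.1, 15.3 and 17.9 FPKM in control ventricles (log2 change 0.02, SE 0.10, limma adjusted p = 0.953). The receptor gene Lgr4 averaged 4.55 ± 0.641 FPKM in LSD1-CKO and 5.15 ± 0.507 FPKM in control ventricles, and the ligase gene Znrf3 1.06 ± 0.0685 FPKM in LSD1-CKO and 1.01 ± 0.246 FPKM in control ventricles (SD, n = 3 each). Rnf43 was near the limit of detection, with 4, 14 and 9 reads in LSD1-CKO and 16, 11 and 6 reads in control libraries.

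Feedback targets, whose transcription canonical signalling is known to raise, differed between the groups by less than the spread of replicates where they could be tested. Axin2, the usual readout of canonical activity, had 1.25, 1.59 and 1.20 FPKM in LSD1-CKO ventricles and 1.15, 1.06 and 1.62 FPKM in control ventricles (log2 change 0.05, SE 0.12, limma adjusted p = 0.893). Nkd1, an inhibitor of Dishevelled, had 6.11, 5.47 and 5.48 FPKM in LSD1-CKO and 5.06, 4.73 and 6.52 FPKM in control ventricles (log2 change 0.06, SE 0.11, limma adjusted p = 0.831). In both genes control replicate 3 held the highest value of all 6 libraries. Notum, a secreted enzyme that removes the lipid of Wnt proteins, fell under the filter, at 0.689, 0.385 and 0.581 FPKM in LSD1-CKO and 0.405, 0.117 and 0.258 FPKM in control ventricles. Its groups touched as well and were separate after rescaling to TPM. Its highest library had 30 reads, and 38.1% of its exon bases lie under Notumos or Myadml2os.

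A wider list of 16 textbook Wnt targets, which shares 8 genes with the members, had 11 tested. Tcf7 was the 1 called higher and 0 were called lower, and the list's median log2 change was 0.05, against -0.01 for all genes tested. The cell cycle gene Ccnd1 had 32.1, 30.1 and 31.3 FPKM in LSD1-CKO and 29.1, 27.7 and 26.1 FPKM in control ventricles (limma adjusted p = 0.264), without overlap, though LTO1 covers 23.4% of its exon bases.

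Beyond the members, 93 further genes of Wnt secretion, reception, inhibition, transduction and planar polarity were listed, and 70 were tested. None was called by limma over all genes, and voom called 2 higher. An unadjusted p under 0.05 was found for 9 (5 higher and 4 lower), which is 12.9%, against 16.1% of all genes. Their median log2 change was -0.01. Ctnnb1, which encodes beta-catenin, averaged 159.9 ± 0.997 FPKM in LSD1-CKO and 163.2 ± 7.72 FPKM in control ventricles (SD, n = 3 each). Of the secretion genes, Wls, the carrier of Wnt proteins to the cell surface, had 17.7, 17.5 and 18.3 FPKM in LSD1-CKO and 16.9, 16.0 and 16.1 FPKM in control ventricles (limma adjusted p = 0.38). Of the further receptor genes, Fzd9 had 3.50, 4.56 and 3.44 FPKM in LSD1-CKO and 2.15, 1.74 and 2.62 FPKM in control ventricles (log2 change 0.61, SE 0.13, limma adjusted p = 0.0661). Of the further inhibitors, Cby1, which binds beta-catenin, had 26.3, 28.6 and 27.2 FPKM in LSD1-CKO and 33.4, 33.5 and 35.2 FPKM in control ventricles (log2 change -0.30, SE 0.06, limma adjusted p = 0.0533). The planar polarity gene Prickle2 had 3.58, 4.34 and 4.20 FPKM in LSD1-CKO and 2.76, 2.42 and 3.25 FPKM in control ventricles (limma adjusted p = 0.11). Wls, Fzd9, Cby1 and Prickle2 were among 14 of the 70 whose groups did not overlap, which is 20%, against 21.4% of all genes. In the cytoplasmic and nuclear lists the smallest p belonged to Gsk3a (limma adjusted p = 0.327) and Tle4 (limma adjusted p = 0.499).

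Set side by side by role, the ligands had a median log2 change of 0.20 over 8 tested, the receptors -0.03 over 11, the cytoplasmic components -0.08 over 6, the TCF/LEF factors 0.14 over 4, the secreted inhibitors -0.23 over 6, the R-spondin axis 0.03 over 4 and the feedback targets 0.05 over 2. These medians rest on few genes and moved with single libraries. Without LSD1-CKO replicate 2 the inhibitor median was -0.07 and that of the cytoplasmic components -0.12. The receptor median was 0.09 without control replicate 3 and 0.04 after rescaling to TPM, where the median of all genes tested was 0.06. The R-spondin median was -0.05 without control replicate 1, and the feedback target median -0.02 without control replicate 2. The ligand and TCF/LEF medians stayed above 0 and the inhibitor median below 0 under each of the 17 other settings. Differences between roles were not tested.

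**Figure D5:**
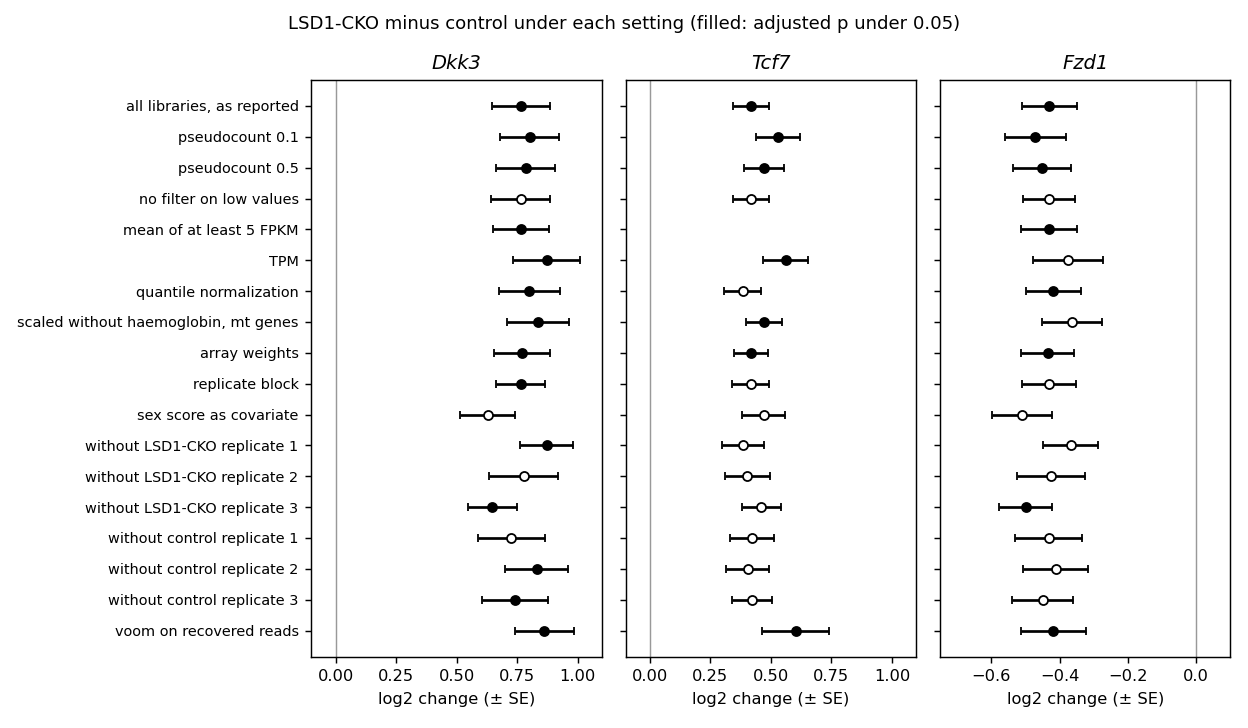
Log2 change (LSD1-CKO minus control, ± SE) of Dkk3, Tcf7 and Fzd1 with all libraries and under each other setting, 1 row per setting, with filled points where the adjusted p was under 0.05. Each point keeps its side of 0, and filled points are found in 13 of 17 other settings for Dkk3, 6 of 16 for Tcf7 and 7 of 17 for Fzd1.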

How the data were processed

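RNA of E12.5 heart ventricles was compared between 3 LSD1-CKO and 3 control libraries, grouped and numbered by their descriptions. TRIzol extraction and the NEBNext Ultra RNA library kit, an unstranded one, are recorded per the labels' protocols. Named tools, per the submitters' processing notes, were HISAT2 2.0.5 and featureCounts 1.5.0-p3 beside CASAVA and fastp, with mm10 as the build, while counting options and annotation release were not given in the sources used here. FPKM were deposited by the authors for 54532 Ensembl IDs, with no read counts.

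Symbols, exon lengths and coordinates came from GENCODE M21 (GRCm38, the assembly of mm10), which held 54495 of the IDs. Where IDs shared a symbol, the one with the highest mean kept it. FPKM multiplied by exon length fell on whole multiples of 1 step per library (98.1% to 98.5% of genes under 30 reads within 0.02 of a whole read), from which reads were recovered. The step followed each library's median-of-ratios size factor. A gene of 1 kb with 3 reads stands at 0.155 to 0.169 FPKM. Floors cover counting error only. Replicates differed beyond sampling noise, with a median chi-square per gene of at least 1.73 for every pair against 0.455 for noise, so each library counted once.

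The test covered genes averaging 0.5 FPKM or more and was run with limma 3.58.1 in R 4.3.3 on log2(FPKM + 1), with a mean-variance trend and genotype as the only term, two-sided, with Benjamini-Hochberg adjustment over 14149 genes and a threshold of 0.05. Changes on this scale understate those of low genes, so ratios of means are also given. The fit was tested on simulated data. The pathway genes and lists were chosen with earlier results of these data known. Values in every library are given for members that were called, had an unadjusted p under 0.05 or had the highest mean of their role. Of each other pathway list up to 3 called genes are named, or else the gene with the smallest p. Values of Wnt4, Wnt9b, Frzb, Sfrp2, Axin2, Notum, Ctnnb1 and Ccnd1 were added after they were seen. Tle5 was matched as Aes. Tables and figures used Python 3.11.15, pandas 2.3.3 and matplotlib 3.10.9.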

Additional observations from a re-analysis of the deposited data

How the results depend on the processing

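The calls were few and depended on the setting, while the directions of Dkk3, Tcf7 and Fzd1 held in each fit that tested them. With all libraries 2 members were called higher and 1 lower. Without a filter on low values, or with the sex score as covariate, 0 were called higher and 0 lower. With a mean of at least 5 FPKM (19 members left) or quantile normalization, 1 was called higher and 1 lower. After rescaling to TPM, or scaling without haemoglobin and mitochondrial genes, 3 were called higher and 0 lower. Over all genes these scalings gave 369 and 398 higher calls and 40 and 49 lower ones. The median log2 change of all genes was 0.06 and 0.04, against -0.01 with FPKM as deposited. With the replicate block 1 was called higher, Dkk3, and 0 lower. In the labels, same-numbered libraries share only a number. Their deviations from the group means correlated at -0.002, 0.14 and 0.164. LSD1-CKO replicates 2 and 3 correlated best with the control library of their own number, and replicate 1 did not. Whether the numbers mark pairs is not known. The block called 220 genes higher and 64 lower over all genes, against 270 and 66 without it. Leaving out 1 library gave 0 to 1 members higher and 0 to 1 lower. The lower call without control replicate 3 was Sfrp1, and without LSD1-CKO replicate 3 it was Fzd1. Kdm1a stayed lower and called in every fit. Voom on recovered reads was added after the data were seen, and called 3 higher and 1 lower. Rspo1 turned to -0.0507 with the sex score, -0.0383 without LSD1-CKO replicate 3, -0.0551 without control replicate 1 and -0.0015 without control replicate 2, and Nkd1 to -0.0162 without control replicate 2, while the highest values without 1 library were 0.108 and 0.180, both without control replicate 3. The cause was not tested. Over all genes the sex score left 93 higher and 23 lower calls and voom gave 523 and 62. The planned count tests on whole reads were not run, since the deposited table holds FPKM. With 3 libraries per group, and with under 50 reads per library in Dkk1, Dkk2, Rnf43, Notum, Wnt6 and Wif1, differences in those 6 genes were poorly resolved.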
